A study of Pimephales promelas with 15 samples.

Results

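Whole fathead minnow larvae (Pimephales promelas) exposed to 100 ng/L of 17α-ethinylestradiol (EE2) were compared with larvae exposed to 20 ng/L, a 5-fold step in nominal concentration. The members are 10 of the 15 libraries in the series, 5 at each concentration, taken by the concentration in their labels. The other 5 libraries, from larvae that received 0.01% DMSO as solvent, entered the test of the step only in alternative fits. Otherwise they serve as a reference level. EE2 is the synthetic estrogen of oral contraceptives. Exposure ran in petri dishes under static renewal from less than 6 hours after fertilization to 96 hours after hatching, and each library is a pool of whole bodies aged 4 days post-hatch. The labels give no number of larvae per pool, no strain or sex, and no DMSO level for the EE2 groups. They do not say whether the pools of a group came from separate dishes, so the p-values reflect variation among the deposited pools, which may be technical.

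In fish, estrogens enter cells and bind nuclear estrogen receptors, which then act as transcription factors on target genes. The best known targets lie in the liver, where estrogen switches on the vitellogenins, precursors of egg yolk, and several egg envelope proteins. Larvae and males carry these genes but hardly use them, which is why their induction is widely used as a marker of estrogen exposure. A concentration step can show which targets still have room to respond and which have reached a plateau. The deposited table names features by a scaffold prefix and a number and pairs none with a gene name. None (0) of its 26150 identifiers (IDs) matched the 64593 genes of the RefSeq table at hand, so no ID can be tied to the genes above, the labelled tissue could not be checked against markers, and no sequence is shown. Up to 2 rising and 2 falling IDs are named as deposited, and the others are given by prefix. IDs of one prefix may be gene copies or fragments with reads in common, which makes the value of each one uncertain.

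Total counts ran from 37100443 to 73989987 per library at 20 ng/L (mean 55108019 ± 16982039, SD, n = 5) and from 32674182 to 48433139 at 100 ng/L (mean 38385158 ± 6479044, SD, n = 5). The totals overlapped (exact two-sided permutation test, p = 0.0714). Levels are given as CPM, the usual unit of counts scaled to library size. Correlations of log2 CPM between libraries ran from 0.949 to 0.978 within 20 ng/L and from 0.947 to 0.977 within 100 ng/L. Across the concentrations they ran from 0.934 to 0.977. These ranges overlapped, so they do not set the groups apart. In whole bodies, fewer cells of a type and less RNA per cell cannot be told apart.

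Of 21555 IDs with enough counts to be tested, 2 rose (0.00928%) and 3 fell (0.0139%), 5 in all (0.0232%), at an adjusted p below 0.05 by edgeR's quasi-likelihood test on the 10 libraries. The 2 that rose were scaf381.6 and scaf10.486. The 3 that fell were scaf111.14, scaf6.24 and 1 scaf17 ID. These calls were fragile: leaving out the second pool of 20 ng/L or the first, the third or the fifth of 100 ng/L left 0 by edgeR (unadjusted p below 0.05 for 3724, 2601, 2936 and 2713 IDs). Without replicate 1 of 20 ng/L 1 ID was called, which is none of the 5. Without replicate 4 of 100 ng/L 1 was called, which is among the 5, and without replicate 4 of 20 ng/L 2 were called, 1 of them among the 5. Without replicate 3 of 20 ng/L 5 were called, 3 of them among the 5. The number was 10, 3 of them among the 5, without replicate 5 of 20 ng/L and 71, 14 up and 57 down and all 5 among them, without replicate 2 of 100 ng/L. DESeq2 called 478 IDs on the same libraries, 164 up and 314 down, all 5 among them.

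The ID scaf381.6 had 2.60, 1.94, 1.43, 1.03 and 5.73 CPM in replicates 1 to 5 of 20 ng/L and 24.1, 28.3, 18.5, 16.7 and 28.8 CPM at 100 ng/L. The lowest library at 100 ng/L thus stood well above the highest at 20 ng/L. Solvent libraries had 0.678 to 2.24 CPM, and 3 of the 5 pools at 20 ng/L lay inside that range. Its log2 fold change was 3.19 (SE 0.42, edgeR adjusted p = 0.0491), a 9.11-fold step with a 95% interval of 4.76 to 17.4. It missed the threshold after removal of any 1 of 8 libraries, that is all but replicate 5 of 20 ng/L and replicate 2 of 100 ng/L (edgeR adjusted p up to 0.213). Without replicate 5 of 20 ng/L the step was 13.5-fold. With the solvent libraries added to the fit the call of scaf381.6 held (edgeR adjusted p = 0.0178).

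The ID scaf10.486 moved by far less. It had 30.1, 36.9, 35.1, 30.6 and 29.3 CPM in replicates 1 to 5 of 20 ng/L and 49.9, 57.2, 54.2, 50.5 and 47.1 CPM at 100 ng/L, again with no overlap. The log2 fold change was 0.68 (SE 0.09, edgeR adjusted p = 0.0434), or 1.599-fold with a 95% interval of 1.40 to 1.83. Solvent libraries had 34.4 to 50.8 CPM, with a mean of 44.2 against 32.4 at 20 ng/L and 51.8 at 100 ng/L, so the group means are not in the order of concentration. Removal of any 1 of 9 libraries ended the call, all but replicate 2 of 100 ng/L (edgeR adjusted p up to 0.201). It held with the solvent libraries added to the fit (edgeR adjusted p = 0.0369), but not when solvent replicate 1 was kept out of that fit (0.0534).

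**Figure D1:**
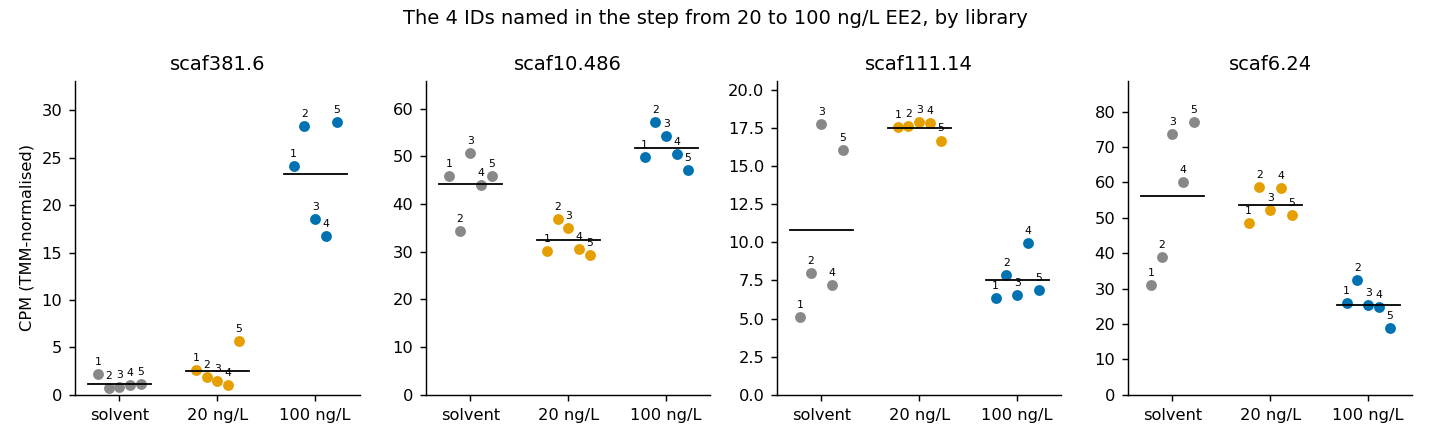
Levels of the 4 named IDs in TMM-normalised CPM (linear axes from 0) in solvent, 20 ng/L and 100 ng/L libraries. Points are libraries marked with their replicate number and lines are group means (n = 5). The 5 libraries at 100 ng/L lie on one side of the 5 at 20 ng/L in each panel, while the solvent libraries of scaf111.14 spread across the levels of both EE2 groups and those of scaf6.24 run from 30.9 to 77.1 CPM, above 4 of the 5 libraries at 100 ng/L.

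Among the IDs that fell, scaf111.14 had the largest change. It was almost constant at 20 ng/L, with 17.5, 17.6, 17.9, 17.8 and 16.7 CPM in replicates 1 to 5. At 100 ng/L it had 6.36, 7.85, 6.55, 9.92 and 6.90 CPM. The change was -1.22 on the log2 scale (SE 0.13, edgeR adjusted p = 0.0181), a ratio of 0.430. Solvent libraries did not share one level: replicates 1, 2 and 4 had 5.12, 8.002 and 7.21 CPM, close to the 100 ng/L pools, and replicates 3 and 5 had 17.7 and 16.1 CPM, close to the 20 ng/L pools. Removal of any 1 of 5 libraries ended the call, replicates 1 and 2 of 20 ng/L and replicates 1, 3 and 5 of 100 ng/L (edgeR adjusted p up to 0.105). The call was also lost with the solvent libraries added to the fit (edgeR adjusted p = 0.451, or 0.102 without solvent replicate 1).

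The ID scaf6.24 had 48.6, 58.8, 52.2, 58.3 and 50.7 CPM in replicates 1 to 5 of 20 ng/L and 25.9, 32.6, 25.3, 24.8 and 19.0 CPM at 100 ng/L. All pools at 100 ng/L were below all pools at 20 ng/L, as for the other IDs that fell (1.67% of all tested IDs did so), and the change was -1.07 on the log2 scale (SE 0.13, edgeR adjusted p = 0.0312). Its solvent libraries ran from 30.9 to 77.1 CPM, wider than either EE2 group. The scaf17 ID had 8.58 to 10.9 CPM at 20 ng/L and 4.25 to 5.58 CPM at 100 ng/L (log2 fold change -0.93, SE 0.12, edgeR adjusted p = 0.0395). Here the solvent range of 6.19 to 15.05 CPM reached above the 20 ng/L pools and lay wholly above the 100 ng/L pools. This ID was below solvent at 100 ng/L (edgeR adjusted p = 0.0290). Leaving out any 1 of 7 libraries (all but replicates 3 and 5 of 20 ng/L and replicate 2 of 100 ng/L) ended the call of scaf6.24, and any 1 of 8 (all but replicate 3 of 20 ng/L and replicate 2 of 100 ng/L) that of the scaf17 ID (edgeR adjusted p up to 0.159 for both). With the solvent libraries in the fit both missed the threshold (edgeR adjusted p = 0.280 and 0.451). With solvent replicate 1 kept out of that fit both missed it more narrowly (0.0541 and 0.0534). A scaf10 ID that was, like the scaf17 ID, below solvent at 100 ng/L (edgeR adjusted p = 0.0358) had 68.8 to 100.1 CPM at 20 ng/L. At 100 ng/L it had 28.4 to 54.7 CPM, and its step missed the threshold (ratio 0.545, edgeR adjusted p = 0.197).

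Larger steps than that of scaf381.6 were measured in 5 of the IDs that 20 ng/L had already raised, all with the prefix scaf140. None of these passed the edgeR threshold on the 10 libraries. All 5 passed by DESeq2 (adjusted p up to 0.000456) and by limma-voom (adjusted p from 0.0181 to 0.0371). With the solvent libraries added to the edgeR fit, some passed (adjusted p = 0.0205, 0.0225 and 0.0225) and the others missed the threshold (0.0535 and 0.0702). Against solvent, 11 IDs were called up at 20 ng/L (0.0501% of 21976 tested) in a fit of all libraries. Of these, 6 had a 95% interval of the step wholly above 0 and 5 had an interval that spanned 0 and lay wholly within 2-fold in either direction. Over all tested IDs, 6.86% had an interval above 0 and 80.7% an interval within 2-fold. The 11 were selected with the same 20 ng/L libraries that enter the step, so these counts are a description. By edgeR on the 10 libraries 0 of the 11 were called in the step, while 6 had an unadjusted p below 0.05. DESeq2 called the same number (6) and limma-voom called 5, which are the scaf140 IDs. Over all 21555 tested IDs, DESeq2 called 478, limma-voom called 12 and 15.5% had an unadjusted edgeR p below 0.05.

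The 5 scaf140 IDs stood higher still at 100 ng/L. In the pools at 20 ng/L their summed share of all counts was 0.0816%, 0.0298%, 0.0253%, 0.0139% and 0.180% for replicates 1 to 5. At 100 ng/L the shares were 1.29%, 1.32%, 1.09%, 0.713% and 1.304%. The weakest pool at 100 ng/L was above the strongest at 20 ng/L, and every pool at 20 ng/L was above the solvent maximum of 0.000651%. By ID the steps ran from 11.1- to 27.8-fold, with no overlap between the concentrations in any of the 5 (1.41% of all tested IDs had all pools at 100 ng/L above all at 20 ng/L), and edgeR adjusted p from 0.177 to 0.203. For 4 of the 5 the whole 95% interval lay above the 5-fold step in concentration itself, and these 4 were all of the IDs tested for which it did (0.0186%). Without replicate 5 of 20 ng/L, the pool with the highest share there, the steps ran from 20.0- to 48.4-fold and 4 of the 5 were called (edgeR adjusted p from 0.00715 to 0.0419). Removal of the highest pool of the lower group raises the step. Each of these 4 was called in only 1 of the 10 fits with a library left out, and the fifth in 0 (edgeR adjusted p up to 0.371). The lowest step over these fits was 9.32-fold. For 1 of the IDs with an interval above 5-fold, that held in 3 of the 10 fits, for the others in all 10.

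The make-up of the scaf140 set also differed between the concentrations. The ID with the most counts in the set held 46.9% ± 4.55 of the set's counts in the 20 ng/L pools (SD, n = 5) but 29.6% ± 5.55 in the 100 ng/L pools (SD, n = 5). The ID with the largest step went from 13.7% ± 2.52 (SD, n = 5) to 22.7% ± 3.96 (SD, n = 5). For 3 of the 5 IDs the shares at the concentrations did not overlap. The shares within a set sum to a whole, so they do not move independently. No test was made of them.

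The sixth ID with an interval above 0 has the prefix scaf62. It had 142.9, 112.2, 79.2, 14.2 and 327.2 CPM in replicates 1 to 5 of 20 ng/L and 787.0, 1257, 804.4, 323.9 and 654.2 CPM at 100 ng/L. The strongest pool at 20 ng/L thus just passed the weakest at 100 ng/L. The step was 5.66-fold (95% interval 2.02 to 15.8, edgeR adjusted p = 0.214). With single libraries left out it ran from 4.62-fold, without replicate 4 of 20 ng/L, to 8.79-fold, without replicate 5 of 20 ng/L.

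**Figure D2:**
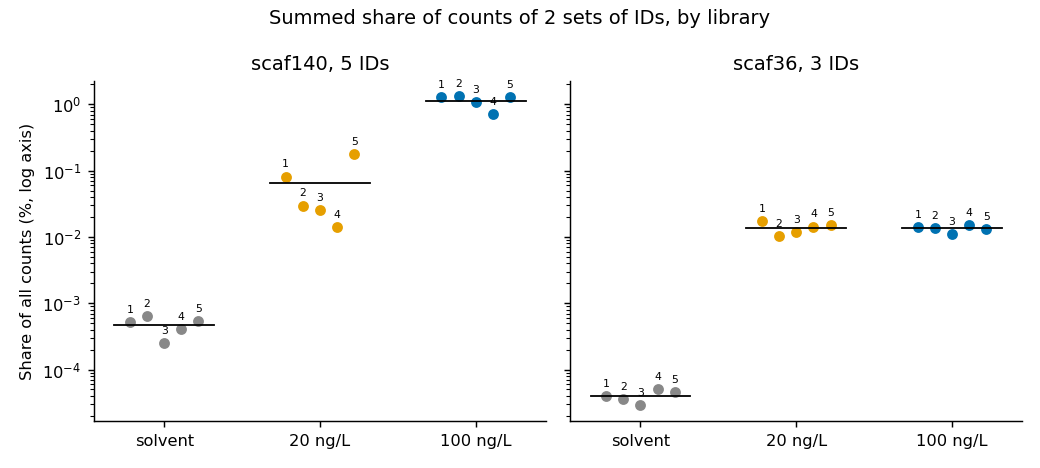
Summed share of all counts, in percent on a log axis, of the 5 scaf140 IDs and the 3 scaf36 IDs that were called up at 20 ng/L against solvent. Points are libraries marked with their replicate number and lines are group means (n = 5). The scaf140 shares of 0.0139% to 0.180% at 20 ng/L and 0.713% to 1.32% at 100 ng/L do not overlap, whereas the scaf36 shares of 0.0102% to 0.0174% and 0.0110% to 0.0152% overlap.

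The 5 IDs with a step bounded within 2-fold were 3 scaf36 IDs, 1 scaf15 ID and 1 scaf14 ID. The most abundant scaf36 ID had 128.4, 79.0, 88.9, 97.1 and 116.5 CPM in replicates 1 to 5 of 20 ng/L and 101.7, 101.1, 82.7, 112.5 and 105.9 CPM at 100 ng/L. These values are interleaved, and the ratio was 0.988 with a 95% interval of 0.803 to 1.22. The scaf15 ID had 6.95 to 9.60 CPM at 20 ng/L and 7.83 to 8.34 CPM at 100 ng/L, a ratio of 0.983 (95% interval 0.824 to 1.17). For the other scaf36 IDs the ratios were 1.05 (0.850 to 1.29) and 0.772 (0.539 to 1.10). Without replicate 2 of 100 ng/L the lower of these ratios was 0.657, and its interval no longer lay within 2-fold. It did in the other 9 fits with a library left out. The scaf14 ID had a ratio of 1.23 (0.949 to 1.58), and without replicate 5 of 20 ng/L its interval lay above 1 (1.09 to 1.70).

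Against solvent, the bounded IDs differed in size of induction. At 20 ng/L the scaf15 ID had a fitted fold of 16.7 and the scaf14 ID one of 2.32, the lowest of the 11 called there. The most abundant scaf36 ID had a fitted fold over solvent of 357 at 20 ng/L and 353 at 100 ng/L, while the scaf140 IDs had folds of 90.3 to 194 and 1924 to 3656. Its fold was thus above those of all 5 scaf140 IDs at 20 ng/L and below all of them at 100 ng/L. These folds rest on low solvent levels, so their order is uncertain. In solvent this scaf36 ID had 0.208 to 0.365 CPM, with as few as 8 counts in a library. The scaf140 IDs had 0.252 to 2.45 CPM there, with as few as 14 counts. The other scaf36 IDs had solvent libraries without counts, so no fold is given for them. The folds over solvent share the same solvent libraries. A 95% interval within 2-fold bounds the step and does not show that the levels were equal.

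**Figure D3:**
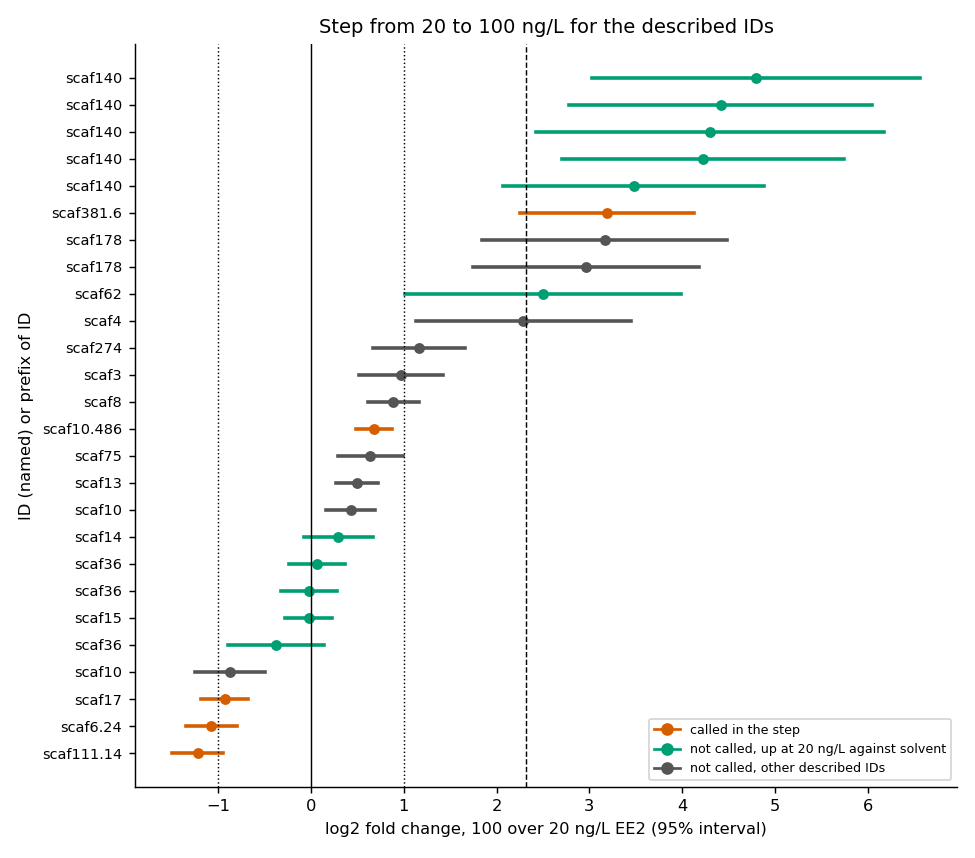
Log2 fold change of 100 over 20 ng/L with its 95% interval (edgeR, 10 libraries) for the 26 described IDs, labelled by name or prefix. Dotted lines mark 2-fold in either direction and the dashed line the 5-fold step in concentration. The 5 scaf140 IDs lie at 3.47 to 4.80, the scaf36 and scaf15 IDs lie around 0, and the called falls lie at -0.93 to -1.22.

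A further 10 IDs were called up against solvent at 100 ng/L without being called at 20 ng/L (21 of 21976 tested were called up at 100 ng/L, 0.0956%). All 10 had a step interval above 0 (6.86% of all tested IDs did). In 8 of them no pool at 100 ng/L overlapped a pool at 20 ng/L. Of all tested IDs, 1.41% had every pool at 100 ng/L above every pool at 20 ng/L. The selection used the same 100 ng/L libraries, which favours a positive step, so this is no independent support. Of the 10, scaf381.6 passed the edgeR threshold for the step on the 10 libraries, all 10 passed by DESeq2 and 3 by limma-voom. Among all 21555 tested IDs, DESeq2 called 478 and limma-voom 12.

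These 10 fell into 5 with a step over 2-fold and 5 with a smaller one. Beside scaf381.6, the larger steps belonged to 2 scaf178 IDs (7.81- and 8.96-fold), 1 scaf4 ID (4.89-fold) and 1 scaf274 ID (2.24-fold), with edgeR adjusted p from 0.177 to 0.203. The less abundant scaf178 ID had 0 to 0.236 CPM at 20 ng/L and 0.651 to 1.36 CPM at 100 ng/L. It had enough counts to be tested only through the 100 ng/L pools. That favours a positive step without overlap, and its fold rests on very few counts at 20 ng/L. The more abundant scaf178 ID had 1.73, 0.613, 0.594, 0.431 and 3.98 CPM at 20 ng/L and 13.0, 14.4, 8.95, 10.1 and 11.6 CPM at 100 ng/L. The smaller steps, 1 ID each of scaf8, scaf3, scaf75, scaf13 and scaf10, ran from 1.35- to 1.96-fold. The scaf8 ID came closest to the threshold, with 58.1 to 83.5 CPM at 20 ng/L and 108.3 to 158.6 CPM at 100 ng/L (1.85-fold, edgeR adjusted p = 0.0625).

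Over all tested IDs, many mostly small differences had a low unadjusted p. An unadjusted edgeR p below 0.05 was found for 3348 IDs (15.5% of those tested, called and described IDs included), where uniform p-values would give 5%. Whether the concentration accounts for this excess was not tested. Of these, 1479 were higher (6.86%) and 1869 lower (8.67%) at 100 ng/L. The median size of the difference was 0.30 log2 units among the higher ones and 0.50 among the lower ones. By size, 34 of the higher and 164 of the lower ones differed by over 2-fold. The number ran from 2479 to 4402 when single libraries were left out, lowest without replicate 4 of 20 ng/L and highest without replicate 2 of 100 ng/L.

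Few of the IDs with an unadjusted edgeR p below 0.05 differed by over 5-fold. Of 13 such IDs that were higher at 100 ng/L, 9 had no overlap between the concentrations, and 1 had a library without counts at 20 ng/L, the lower group. Of 11 that were lower at 100 ng/L, 2 had no overlap, and 8 had at least 1 library without any count at 100 ng/L, here the lower group. Over all tested IDs, 1.41% had all pools at 100 ng/L above all at 20 ng/L and 1.67% had them all below. A low p favours such separation, so these counts are a description. Of the 13, 9 are IDs described above, among them the 5 scaf140 and 2 scaf178 IDs, all without overlap. IDs with a shared prefix do not count as independent. The median level was 3.68 log2 CPM for the 13 and 0.40 for the 11, so the sets also differ in level. None of the 11 was called by edgeR on all 10 libraries (lowest adjusted p = 0.205). Falls of over 5-fold, here not restricted to the 11, were called in fits with 1 library left out. Another scaf6 ID was called without replicate 5 of 20 ng/L (log2 fold change -4.34, edgeR adjusted p = 0.00158). Another scaf14 ID was called without replicate 2 of 100 ng/L (log2 fold change -3.76, edgeR adjusted p = 5.08e-05). Neither was called on all 10 libraries, so these calls rest on the removal of a pool. Their folds and p-values are not those of the full groups.

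**Figure D4:**
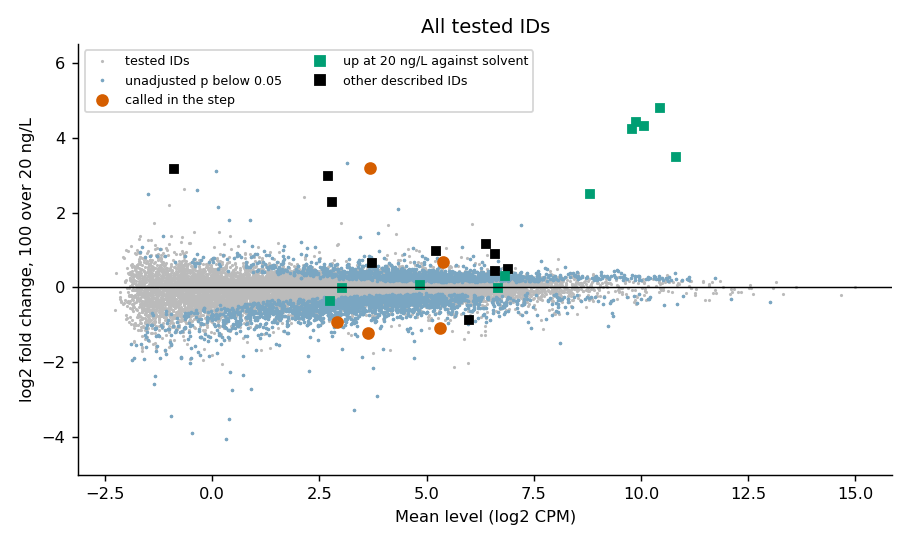
Log2 fold change of 100 over 20 ng/L against mean log2 CPM for the 21555 tested IDs, with the 5 called IDs and the other described IDs marked. The scaf140 and scaf62 IDs stand apart at high level and large change, while most IDs with an unadjusted p below 0.05 lie within 1 log2 unit of 0.

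Spread between pools differed by kind of ID. For most of the IDs called up against solvent with a step interval above 0, pools differed more at 20 ng/L. The ratio of the highest to the lowest pool was 11.9 to 23.5 for the scaf140 IDs at 20 ng/L and 1.65 to 2.86 at 100 ng/L. The SD of log2 CPM was larger at 20 ng/L for 12 of the 15 such IDs with counts in every pool, while 58.9% of all tested IDs had the larger SD at 100 ng/L. Among the 5 with a step under 2-fold it was larger at 20 ng/L for 2. Of the 16 such IDs, 10 were called against solvent at 100 ng/L only. That selection favours pools that are alike at 100 ng/L and spread at 20 ng/L, so the counts are a description. For the 3 scaf36 IDs the same ratio was 1.63 to 1.99 at 20 ng/L and 1.32 to 2.07 at 100 ng/L. The 3 IDs that fell all had the larger SD at 100 ng/L, as most tested IDs did. For scaf111.14 it was 0.04 at 20 ng/L and 0.26 at 100 ng/L.

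Many of the IDs called up against solvent with a step interval above 0 shared an order of pools. There were 16 such IDs, called at either concentration. At 20 ng/L replicate 5 was the highest pool in 15 of the 16 and replicate 4 the lowest in 15, against 17.6% and 30.4% of all tested IDs. In 8 of them, all 5 scaf140 IDs, the scaf62 ID, the more abundant scaf178 ID and scaf381.6, the pools ran in the order 5, 1, 2, 3, 4 from high to low, found in 0.752% of all tested IDs. At 100 ng/L replicate 4 was again the lowest in 14 of the 16 (24.6% of all tested IDs). Among the 5 bounded IDs, replicate 5 was the highest at 20 ng/L in 2 and replicate 4 the lowest in 0, and replicate 4 was the lowest at 100 ng/L in 1. IDs with a shared prefix do not count as independent. Replicate 4 had the largest total count of all libraries (73989987) at 20 ng/L but not at 100 ng/L (35170453), where replicate 3 had the largest. The part that depth plays in this order was not tested.

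Over all tested IDs the pools at 100 ng/L were somewhat farther apart. The root mean square distance of a library from the mean of the other 4 of its group was 0.446, 0.508, 0.428, 0.592 and 0.456 log2 units for replicates 1 to 5 of 20 ng/L and 0.555, 0.557, 0.467, 0.641 and 0.613 for those of 100 ng/L. Replicate 4 was the farthest in both groups. The means were 0.486 ± 0.0662 and 0.567 ± 0.0667 (SD, n = 5 each), a difference that missed the threshold (exact two-sided permutation test, p = 0.0952; distances within a group share libraries). On the 1000 most abundant IDs the difference was -0.0146 (exact p = 0.825), and with all libraries thinned to the smallest total it was 0.0601 (exact p = 0.175). With single libraries left out the exact p ran from 0.0238 to 0.317. It was 0.0476 without the fourth pool of 20 ng/L, 0.0476 without the second of 100 ng/L and 0.0238 without the third of 100 ng/L, and above 0.05 in the other 7 fits. In these fits 1 group has 4 pools, each measured against a mean of fewer pools, which by itself enlarges its distances. The exact test does not allow for this, so these p-values cannot decide whether the groups differ. The common biological coefficient of variation, edgeR's measure of spread beyond counting error, was 24.5% at 20 ng/L (20.7% to 26.0% with single libraries left out) and 26.2% at 100 ng/L (24.3% to 28.0%).

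The excess at 100 ng/L, where total counts were lower, was larger among IDs of low level. Among 2479 IDs below 1 CPM the median SD of log2 CPM was 0.55 at 20 ng/L and 0.68 at 100 ng/L. Among 2405 IDs at 64 CPM or above it was 0.15 and 0.17. A range over 10-fold between pools was found for 340 IDs at 20 ng/L (1.58% of tested IDs) and 619 at 100 ng/L (2.87%). Both lists held 184 IDs (54.1% of the first and 29.7% of the second).

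**Figure D5:**
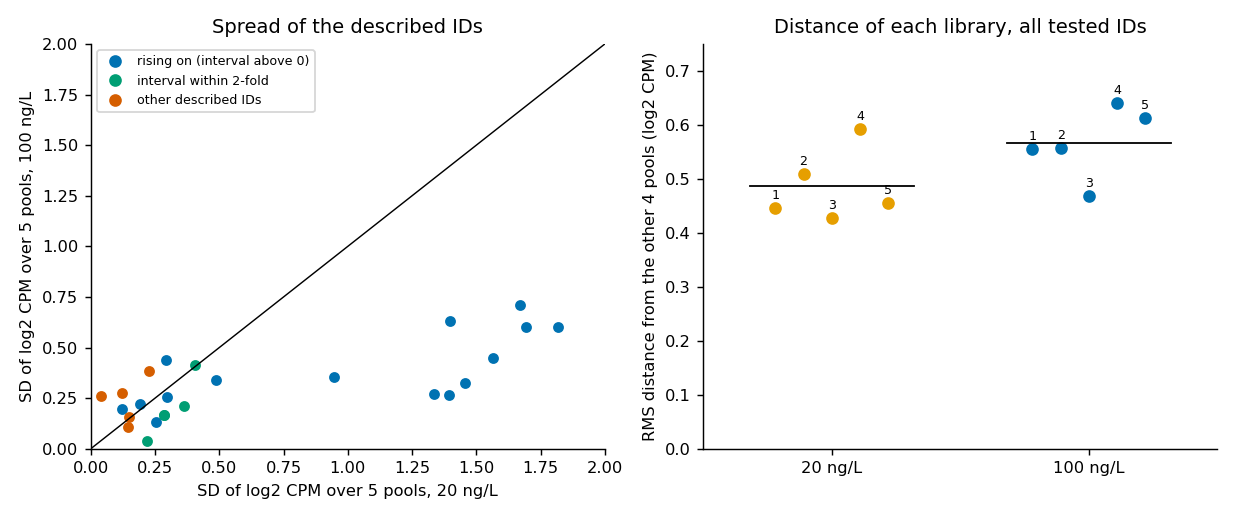
Left, SD of log2 CPM over the 5 pools at 20 ng/L (x) and at 100 ng/L (y) for the described IDs with counts in every EE2 pool, with a line of equality. Right, root mean square distance of each library from the other 4 of its group over all tested IDs, with replicate numbers and group means. The IDs called up against solvent with a step interval above 0 reach an SD of 1.82 at 20 ng/L and 0.71 at 100 ng/L, and the library distances of the groups overlap.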

How the data were processed

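The submitters' processing notes name edgeR 3.26.5, Trimmomatic 0.38 and StringTie 1.3.4d. Which aligner, build and annotation were used, and whether counting used strand, is not given in the sources used here. Reads of antisense or overlapping genes may therefore be mixed. Per the labels' protocols, poly(A) libraries that mark strand were made from 250 ng of total RNA.

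The counts that the authors deposited are whole numbers, 1 per library for each ID, and were used as they stand. Their deposited tables of EE2 against solvent hold, per the file headers, log2 fold changes, log2 mean CPM, p-values, adjusted p-values, and a signed fold and an F score. They were not used for any value here.

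The analysis used edgeR 4.0.16 under R 4.3.3: filterByExpr (minimum count 10, minimum total 15), TMM factors, robust quasi-likelihood on the 10 EE2 libraries with group means only, and Benjamini-Hochberg adjustment over all tested IDs (threshold 0.05). Intervals (95%) are the log2 fold change plus or minus the t quantile times its SE. Levels are CPM with TMM factors from all 15 libraries, and log2 CPM for spread used a prior count of 2. Comparisons with solvent came from a fit of all 15 libraries. Scripts were tested on simulated counts. Alternatives included DESeq2 1.42.0 and limma-voom (limma 3.58.1). Python 3.11.15 with matplotlib 3.10.9 drew the figures.

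The rule for named IDs took the 2 largest called changes in each direction, 1 per prefix, without overlap between groups. No symbol could be looked up, so the planned gene lists gave no values. The members, lists and tests were chosen with earlier results of these data known. The 26 described IDs are those called in the step or against solvent at either concentration.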

Additional observations from a re-analysis of the deposited data

Results flagged for a closer look

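Among 56 groups of 5 libraries examined, 3 had a library set apart from the other 4, where 1 in 20 is usual by chance. The rule weighs the gap to the nearest library against the range of the group. A small difference can therefore be flagged where the other 4 are close together. At 20 ng/L, replicate 5 had 16.7 CPM of scaf111.14, where the others had 17.5 to 17.9. At 100 ng/L, replicate 5 had 4.25 CPM of the scaf17 ID that fell, where the others had 5.21 to 5.58. At 100 ng/L, replicate 2 had 9.34 CPM of the least abundant scaf36 ID, where the others had 4.51 to 5.30, and without that library the ratio of 100 to 20 ng/L for this ID went from 0.772 to 0.657.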

How the results depend on the processing

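The main counts were 2 IDs up and 3 down. They became 164 and 314 with DESeq2, 9 and 3 with limma-voom, 1 and 3 without a filter, 6 and 0 with all 15 libraries in the fit (1197 lower at an unadjusted p below 0.05), 0 and 0 by edgeR at an adjusted p below 0.01 (3348 at an unadjusted p below 0.05), and, among settings chosen after seeing the data, 11 and 5 by limma-voom with quality weights and 2 and 0 with every library but solvent 1 (1829 lower at an unadjusted p below 0.05). Of the 5 called IDs, 2 were called with all 15 libraries. A fit that blocked on replicate number gave 5 up and 2 down, 4 of them among the 5, and the scaf17 ID missed the threshold (edgeR adjusted p = 0.134). Deviations of same-numbered libraries correlated by 0.08 to 0.46, with 4 of 5 pairs over 0.1. Every pair had to pass 0.1 for the numbers to count as pairing, so they were not used as such, although the labels do not settle it. Not every library correlated best with its own number. With single libraries left out, 0 to 14 were up and 0 to 57 down. RLE factors, the filter at 1 CPM, non-robust estimation, library size only, thinning and a threshold of 0.1 gave counts within 1.5 times of the main ones. Over 110 single values of the 5 called IDs, 0 reversed and 46 lost the call. The bounded steps numbered 5, or 3 within a limit of 1.5-fold, and 4 to 5 with single libraries left out. The difference in distance between pools was 0.0805 log2 units, -0.0146 on the 1000 most abundant IDs, and 0.0442 to 0.134 with single libraries left out. A group with a library left out tends to have larger distances by construction. No block was applied to this difference, since a block makes both groups equal by construction. Small steps are limited in precision: the median half-width of the 95% interval was 0.35 log2 units.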
